A study of Peromyscus maniculatus and Peromyscus polionotus and Peromyscus maniculatus x Peromyscus polionotus with 18 samples.

Results

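The whole brains of 2 species of deer mouse were compared directly after a burrowing trial, with 3 libraries of *Peromyscus polionotus* set against 3 libraries of *Peromyscus maniculatus*, 6 of the 18 libraries of the series. The genes described are the 14366 of 20731 named genes that reached a mean of at least 1 TPM (an abundance scaled to gene length and to a fixed library total) over the 12 parental libraries. The other 6365 genes lay below that level and were not tested. All animals were adult males of about 50 to 80 days, had been through 2 earlier trials in the same kind of sand-filled enclosure, and were assigned at random to a burrowing or a control trial. What the control trial consisted of was not given in the sources used here. Brains were taken immediately after the trial under CO2, and libraries were made from polyadenylated RNA with a stranded kit. Per the labels, the parental groups differ in species and trial, and no transgene or drug is named. The other groups used here are 3 libraries of each species after the control trial and 3 libraries of F1 hybrids after the burrowing trial, with both parental alleles. The direction of the hybrid cross was not given in those labels.

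The oldfield mouse *P. polionotus* builds long burrows that include an escape tunnel, whereas burrows of the deer mouse *P. maniculatus* are short and simple. Digging is a voluntary, repeated motor act. Such acts are shaped by dopamine acting on medium spiny neurons of the striatum, by brainstem and cerebellar circuits and by hypothalamic peptides, and each of these leaves known marker genes in brain RNA. In an F1 hybrid both parental alleles share the same cells, so an allele difference arises within a cell, while parental animals can also differ in their cell types, their hormones and what they did in the trial.

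The 6 burrowing libraries were alike within a species, with Spearman correlations across genes of 0.989 to 0.996 between replicates. The first principal component held 73.9% of their variance and separated the species. The second held 9.81%, and *P. polionotus* burrowing replicate 3 lay at one end of it at -19.8 against -8.63 to 14.5 for the other libraries. Between 14125 and 14392 genes per library had at least 1 TPM. MTRNR2L6, a transcript of mitochondrial type, took 6.51% to 8.56% of the TPM of a *P. maniculatus* library and 4.24% to 5.31% of a *P. polionotus* library. TPM share a fixed total, and the part of this transcript in the values of other genes was not tested. The median log2 fold change over all tested genes was 0.029. TPM keep no read depth, so the only measure of precision is how far replicate libraries differ. The p-values and standard errors of the species differences pool the spread between replicates over all parental groups, those after the control trial included. Each library was taken as 1 animal.

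After burrowing, 4901 of 14366 genes (34.1%) differed between the species at an adjusted p under 0.05 in limma's moderated test on log2(TPM + 1), referred to below as called. Of these, 2876 genes (20%) were higher and 2025 (14.1%) lower in *P. polionotus*. All fold changes below are *P. polionotus* minus *P. maniculatus* on the log2(TPM + 1) scale, which understates the change of genes with low values. Most differences were small: the median absolute log2 fold change of the called genes was 0.45, and the smallest was 0.14. A change of over 1 log2 was reached by 350 called genes in the higher direction (2.44% of all tested) and by 292 in the lower direction (2.03%). Only 122 exceeded 2 log2 and 36 exceeded 3. The 3 libraries of one species lay wholly above or below the 3 of the other in 7262 genes (50.5%), and 4845 genes (33.7%) were both called and without overlap. Only 56 called genes overlapped, so a lack of overlap adds little to the call of a gene.

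Called genes were found at every level of expression. Among genes with a mean under 5 TPM, 37.2% were called, and among those at 100 TPM or more 27.0% were called. Large differences were concentrated at low levels: 280 of the 3494 genes under 5 TPM were called with more than 1 log2, against 38 of the 1801 genes at 100 TPM or more. The genes nearest the level used to choose the genes were Ptprm at a mean of 1.002 TPM inside it and Sh3rf2 at 0.9995 TPM outside it.

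**Figure D1:**
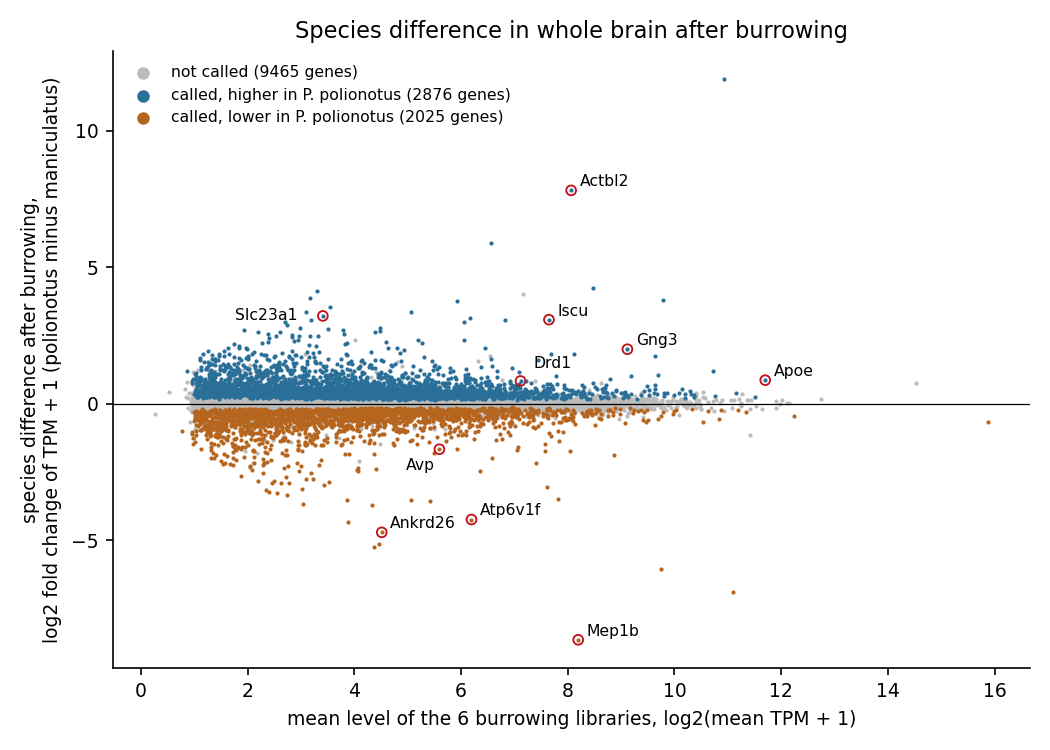
Each point is 1 of the 14366 tested genes, with the mean level in the 6 burrowing libraries on the horizontal axis as log2(mean TPM + 1) and the species difference on the vertical axis as log2 fold change, *P. polionotus* minus *P. maniculatus*. Blue points are the 2876 genes called higher in *P. polionotus*, brown points the 2025 called lower, grey points the rest, and red rings mark the genes that carry a name. Mep1b at -8.66 and Actbl2 at 7.81 lie furthest from 0 among the ringed genes.

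A small set of genes was close to silent in one species and clearly present in the other. A mean under 1 TPM in one species and of at least 10 TPM in the other was found for 18 called genes, 8 of them higher and 10 lower in *P. polionotus*, of which 7 carry a gene symbol. Mep1b encodes the beta subunit of meprin, a metalloprotease best known from kidney and intestine. It was measured at 630.5, 630.2 and 492 TPM in *P. maniculatus* and 0.46, 0.381 and 0.483 TPM in *P. polionotus* (log2 fold change -8.66, SE 0.11, adjusted p = 3e-12). Ankrd26, an ankyrin repeat gene, stood at 41.7, 46.6 and 40.9 TPM in *P. maniculatus* and 0.654, 0.661 and 0.695 TPM in *P. polionotus*, with a log2 fold change of -4.72. Slc27a5, a liver-type bile acid and fatty acid ligase, had 13.8, 12.6 and 14.2 TPM in *P. maniculatus* and 0.761, 0.404 and 0.911 TPM in *P. polionotus*. The largest changes were named only where the groups did not overlap, so separation was a condition here and not a result. All 3 genes had the same direction after the control trial. The locus with the most extreme contrast carries no gene name: LOC102927525 averaged 1.83e-06 TPM over the *P. maniculatus* libraries and 3898 TPM over those of *P. polionotus*, with a log2 fold change of 11.90. LOC102903910 showed the reverse, with 39.1 TPM in *P. maniculatus* and 0 TPM in every *P. polionotus* library. Whether alignment was equally complete for both species was not given in the sources used here, nor was it tested. This holds for these genes and for the other genes described below.

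Among the named genes higher in *P. polionotus*, Actbl2 had the largest change. This actin-like gene read 0.927, 1.52 and 1.7 TPM in *P. maniculatus* and 576, 555 and 464 TPM in *P. polionotus* (log2 fold change 7.81, SE 0.20, adjusted p = 1.56e-09). Its sequence is close to that of the abundant actins, so its value is uncertain. Iscu, the scaffold protein on which iron-sulphur clusters are built in mitochondria, was at 43.9, 39.3 and 41.5 TPM in *P. maniculatus* and 345, 341 and 386 TPM in *P. polionotus* (log2 fold change 3.07, SE 0.10, adjusted p = 1.11e-08). No *P. maniculatus* library came near the *P. polionotus* values. Slc23a1, a sodium-dependent vitamin C transporter, was at 1.27, 1.07 and 0.882 TPM in *P. maniculatus* and 17.6, 16.9 and 20.2 TPM in *P. polionotus*. Gpx2, a glutathione peroxidase, was at 0.189, 0.704 and 0.733 TPM in *P. maniculatus* and 7.97, 6.96 and 8.93 TPM in *P. polionotus*. Gpr55, a receptor for lysophospholipids, had 0.804, 0.487 and 0.736 TPM in *P. maniculatus* and 8.13, 7.92 and 7.64 TPM in *P. polionotus*. The groups of these genes did not overlap, which for the largest changes was a condition of being named. Stard5, which carries sterols between membranes, and Arl11, a small GTPase of the ARF family, were higher with log2 fold changes of 2.34 and 2.45.

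The replicate libraries were less uniform in other genes of this group. Il33, a cytokine released by damaged cells and held in the nucleus of glia, was at 2.41, 2.5 and 2.77 TPM in *P. maniculatus* and 14.2, 24.8 and 30.1 TPM in *P. polionotus* (log2 fold change 2.69, SE 0.68, adjusted p = 0.0107). The *P. polionotus* libraries varied widely, and all lay above every *P. maniculatus* library. Rec8, a cohesin subunit of meiotic cells, was at 1.11, 0.739 and 0.89 TPM in *P. maniculatus* and 16.2, 20.2 and 1.43 TPM in *P. polionotus* (log2 fold change 2.33, SE 0.62, adjusted p = 0.0138), so that *P. polionotus* replicate 3 lay next to the *P. maniculatus* values. The Rec8 call was lost when *P. polionotus* burrowing replicate 1 or 2 was left out or when only the 2 groups were fitted (adjusted p up to 0.0551). Ahsp, the chaperone of alpha globin in red cells, was at 0, 0.972 and 0 TPM in *P. maniculatus* and 4.49, 7.91 and 8.15 TPM in *P. polionotus* (log2 fold change 2.61, SE 0.67, adjusted p = 0.0124).

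The genes lower in *P. polionotus* included parts of basic cell machinery. Atp6v1f encodes subunit F of the vacuolar proton pump, which acidifies synaptic vesicles and lysosomes. It was at 151, 117 and 147 TPM in *P. maniculatus* and 6.84, 5.2 and 6.94 TPM in *P. polionotus* (log2 fold change -4.25, SE 0.13, adjusted p = 6.2e-09). Ddx11, a DNA helicase of chromosome cohesion, had 67.6, 78 and 87.8 TPM in *P. maniculatus* and 5.06, 5.3 and 6.25 TPM in *P. polionotus*. Ndufv2, a core subunit of respiratory complex I, was at 198, 200.3 and 206 TPM in *P. maniculatus* and 58.7, 60.6 and 63.6 TPM in *P. polionotus* (log2 fold change -1.71, SE 0.15, adjusted p = 1.41e-05). The groups of these 3 genes did not overlap, which for the largest changes was a condition of being named. Aldh3a1, an aldehyde dehydrogenase known from cornea and stomach, had 57.2, 66.3 and 57.2 TPM in *P. maniculatus* and 4.3, 3.61 and 5.1 TPM in *P. polionotus* (log2 fold change -3.53, SE 0.58, adjusted p = 0.000955). Lypd3, a membrane protein of the Ly6 family, was at 26, 25.2 and 26.3 TPM in *P. maniculatus* and 0.893, 1.38 and 1.82 TPM in *P. polionotus*. Ccer1 and Zmynd15, both known from sperm formation, fell by 2.98 and 2.90 on the log2 scale. Shbg, which binds sex steroids in plasma, had 10.5, 26 and 21.8 TPM in *P. maniculatus* and 1.35, 1.52 and 2.08 TPM in *P. polionotus*. Pde6g, the inhibitory gamma subunit of the phosphodiesterase of rods, had 8.42, 23.3 and 14.5 TPM in *P. maniculatus* and 1.89, 1.24 and 0.696 TPM in *P. polionotus*. Both were low in all *P. polionotus* libraries and varied more widely among the *P. maniculatus* libraries.

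The most abundant genes with a change of over 1 log2 came from several classes. Gng3, a G protein gamma subunit of neurons, was at 201, 273 and 197 TPM in *P. maniculatus* and 807, 868 and 980.4 TPM in *P. polionotus* (log2 fold change 1.99, SE 0.16, adjusted p = 7.77e-06). Shisa5, a membrane protein of the endoplasmic reticulum, was at 76.8, 82.5 and 88.7 TPM in *P. maniculatus* and 177, 188 and 192 TPM in *P. polionotus*. Gp1bb, a platelet glycoprotein subunit, was at 66.1, 84.5 and 61.5 TPM in *P. maniculatus* and 200.4, 182 and 147 TPM in *P. polionotus*. In the other direction, Ncdn (neurochondrin, a neuronal protein of dendrite outgrowth) read 603, 844 and 754 TPM in *P. maniculatus* and 279, 184 and 143 TPM in *P. polionotus* (log2 fold change -1.90, SE 0.28, adjusted p = 0.000496). C1qbp, a mitochondrial matrix protein, was at 381, 422 and 415 TPM in *P. maniculatus* and 120.4, 114 and 127 TPM in *P. polionotus*. Snapin, a protein of the synaptic vesicle and lysosome transport machinery, was at 326, 313 and 347 TPM in *P. maniculatus* and 127, 125 and 129 TPM in *P. polionotus* (log2 fold change -1.36, SE 0.056, adjusted p = 6.59e-08). The 3 Snapin libraries of each species agreed closely. A lack of overlap between species was a condition of being named among these abundant genes. Nudt16, a nucleotide hydrolase, had a log2 fold change of -1.05.

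Neuropeptide precursors showed a few large differences and many that did not pass. Of 37 tested precursor genes (47 in the table), 7 were higher and 3 lower in *P. polionotus*. This is a called share of 27.0% beside 34.1% of all tested genes (20% higher and 14.1% lower). The median log2 fold change was -0.076 beside 0.029 over all tested genes. Leaving out 1 burrowing library at a time gave 4 to 6 higher and 3 to 5 lower, with 4 higher without *P. maniculatus* replicate 2 or any one *P. polionotus* library and 5 lower without *P. maniculatus* replicate 3. Because whole brain was sampled, fewer cells that make a peptide and less RNA per cell cannot be told apart. Avp, the precursor of vasopressin, was at 80.4, 70.4 and 66.9 TPM in *P. maniculatus* and 20, 21.4 and 25 TPM in *P. polionotus* (log2 fold change -1.67, SE 0.22, adjusted p = 0.000232). Its lowest *P. maniculatus* library was above every *P. polionotus* library by more than the range within either species. Pomc, the precursor of melanocortins and beta-endorphin, was at 7.39, 9.67 and 7.53 TPM in *P. maniculatus* and 3.22, 3.46 and 1.84 TPM in *P. polionotus* (log2 fold change -1.28, SE 0.25, adjusted p = 0.00242). Nmb, the precursor of neuromedin B, was at 18.8, 19.5 and 20.4 TPM in *P. maniculatus* and 10.6, 14.3 and 11.3 TPM in *P. polionotus*, and was the other precursor that was lower. The posterior and anterior pituitary marker list, to which Pomc also belongs, had 3 tested members, with sums of 10.6 to 13.5 TPM in *P. maniculatus* and 5.24 to 7.01 TPM in *P. polionotus*. Cga (glycoprotein hormone alpha chain), another tested member of that list, had a log2 fold change of -0.39 (adjusted p = 0.429). The part of attached pituitary tissue in the Pomc result was not tested.

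The higher precursors included both striatal opioid peptides. Of the hypothalamic marker list, Gal was the 1 higher member, and Avp and Pomc were the 2 lower ones. Npb, neuropeptide B, was at 10.3, 6.55 and 4.48 TPM in *P. maniculatus* and 13, 14.7 and 17.3 TPM in *P. polionotus* (log2 fold change 1.03, SE 0.34, adjusted p = 0.0358). Nppa, atrial natriuretic peptide, was at 2.76, 2.27 and 2.03 TPM in *P. maniculatus* and 7.15, 3.59 and 4.4 TPM in *P. polionotus* (log2 fold change 0.81, SE 0.20, adjusted p = 0.0105). The groups did not overlap in either gene. The Npb call was lost with the replicate block, without *P. maniculatus* replicate 2 or 3 and without any one *P. polionotus* library or the 3 libraries apart on the second component (adjusted p up to 0.13). Pdyn, the precursor of dynorphin, was at 32.1, 20.5 and 29.6 TPM in *P. maniculatus* and 42.1, 46.2 and 46.9 TPM in *P. polionotus* (log2 fold change 0.72, SE 0.16, adjusted p = 0.0055). Grp, gastrin-releasing peptide, was at 3.98, 4.12 and 3.71 TPM in *P. maniculatus* and 6.44, 6.25 and 8.06 TPM in *P. polionotus*, and Gal, galanin, at 3.04, 3.16 and 3.0 TPM in *P. maniculatus* and 4.34, 5.55 and 4.91 TPM in *P. polionotus*. Neither pair of groups overlapped. Penk, the precursor of enkephalin, was at 393, 302 and 354 TPM in *P. maniculatus* and 449, 475 and 462 TPM in *P. polionotus* (log2 fold change 0.41, SE 0.13, adjusted p = 0.032), a difference small beside its level. The Penk call was lost under median scaling, with the replicate block, and without *P. maniculatus* burrowing replicate 2 or 3 or any one *P. polionotus* burrowing library (adjusted p up to 0.119). Oxt, the precursor of oxytocin, had 75, 97.1 and 55.8 TPM in *P. maniculatus* and 126, 147 and 53.8 TPM in *P. polionotus*, and its groups overlapped (adjusted p = 0.482). Npy, Tac1 and Sst, the precursors of neuropeptide Y, substance P and somatostatin, had log2 fold changes of -0.076, 0.023 and 0.13 and did not pass. Hcrt, the orexin precursor, had 31.1, 42.2 and 23.4 TPM in *P. maniculatus* and 31, 26.9 and 13 TPM in *P. polionotus*, with *P. polionotus* replicate 3 lowest (adjusted p = 0.257). Crh, the releasing hormone of the stress axis, had 36.8, 34.9 and 49 TPM in *P. maniculatus* and 31.3, 36.3 and 24.5 TPM in *P. polionotus* (adjusted p = 0.113).

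**Figure D2:**
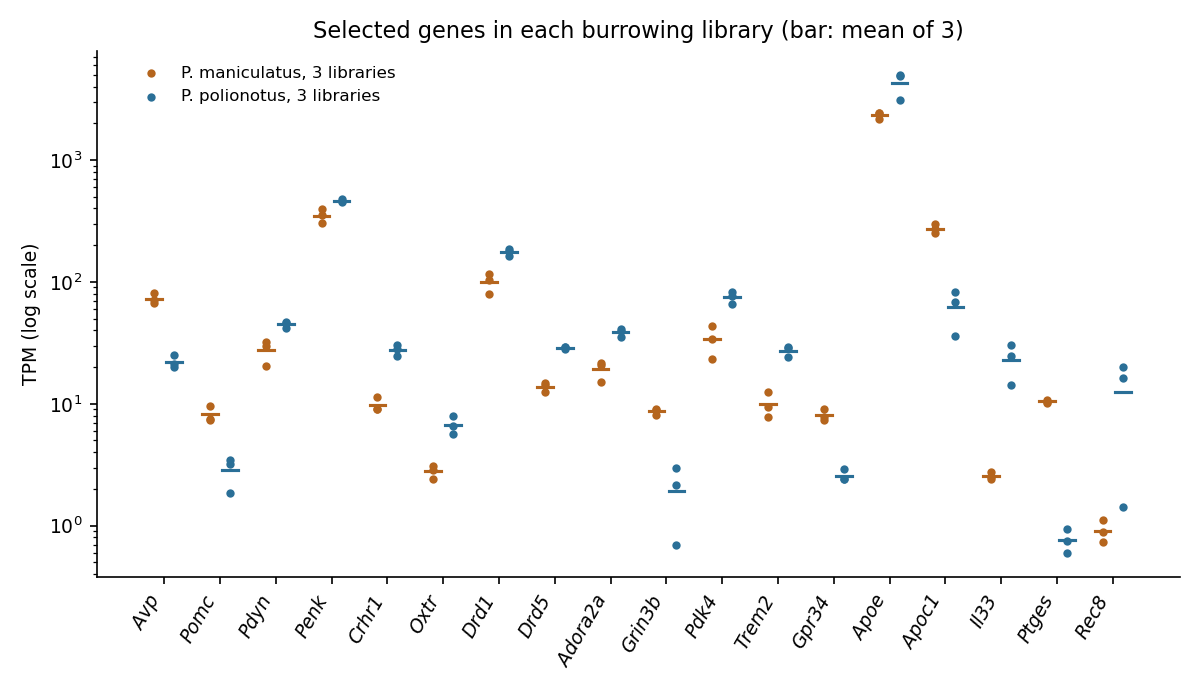
Points give TPM on a log scale in each of the 3 *P. maniculatus* (brown) and 3 *P. polionotus* (blue) burrowing libraries, and bars give the mean of 3. Species are fully separated in the genes drawn, which were all selected from called genes. Rec8 shows 1 *P. polionotus* library close to the *P. maniculatus* values.

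Peptide receptors were called higher more often than lower. Of 38 tested receptor genes, 13 were higher and 3 lower, with a median of 0.17. Against this, 20% of all tested genes were higher and 14.1% lower. With quantile normalization the counts were 11 higher and 5 lower, and leaving out 1 library at a time gave 9 to 12 higher and 2 to 5 lower, with 5 lower without *P. maniculatus* replicate 2. Crhr1, the main receptor for corticotropin-releasing hormone, had 9.04, 9.14 and 11.3 TPM in *P. maniculatus* and 24.4, 28.3 and 30.5 TPM in *P. polionotus* (log2 fold change 1.41, SE 0.13, adjusted p = 2.49e-05). Oxtr, the oxytocin receptor, was at 2.89, 3.09 and 2.42 TPM in *P. maniculatus* and 6.58, 5.67 and 7.93 TPM in *P. polionotus* (log2 fold change 1.02, SE 0.11, adjusted p = 7.11e-05). Both receptors were above the *P. maniculatus* range in each *P. polionotus* library. Prokr2 and Mc4r, receptors for prokineticin and for melanocortins, were both higher by 0.62 log2. Npr2, the receptor guanylyl cyclase for C-type natriuretic peptide, was at 33.7, 38.9 and 35.8 TPM in *P. maniculatus* and 49.3, 53.4 and 54.6 TPM in *P. polionotus*. The kappa and delta opioid receptors Oprk1 and Oprd1 were higher by 0.37 and 0.31 log2, while the mu receptor Oprm1 had -0.13 (adjusted p = 0.227). The Oprd1 call was lost with quantile normalization, median scaling, the replicate block and without *P. maniculatus* replicate 1 or 3 or *P. polionotus* replicate 1 or 2 (adjusted p up to 0.126). Oprl1, the nociceptin receptor, was the clearest of the lower receptors at 232, 230.0 and 234 TPM in *P. maniculatus* and 159.8, 162 and 166 TPM in *P. polionotus* (log2 fold change -0.51, SE 0.081, adjusted p = 0.000753). Sstr3, a somatostatin receptor of neuronal cilia, had 68.8, 81.5 and 83.7 TPM in *P. maniculatus* and 57, 56.5 and 52.8 TPM in *P. polionotus*. The vasopressin receptor Avpr1a had 3.08, 3.36 and 3.21 TPM in *P. maniculatus* and 4.37, 3.16 and 3.79 TPM in *P. polionotus* and did not pass (adjusted p = 0.222). Thus the precursor Avp and the receptor Oxtr were called, while Oxt and Avpr1a were not.

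Both dopamine receptors of the D1 type were higher in *P. polionotus*, as were some genes of the marker list of striatal medium spiny neurons. Drd1 is a member of that list and Drd5 is not. Drd1, the D1 receptor, was at 115, 80.2 and 103 TPM in *P. maniculatus* and 178, 163 and 185 TPM in *P. polionotus* (log2 fold change 0.83, SE 0.13, adjusted p = 0.000804). Drd5, the other D1-type receptor, was at 14.4, 14.8 and 12.4 TPM in *P. maniculatus* and 29.4, 28.3 and 29.2 TPM in *P. polionotus* (log2 fold change 1.01, SE 0.07, adjusted p = 2.58e-06). Drd2, the D2 receptor of the indirect pathway, was at 7.37, 4.97 and 6.85 TPM in *P. maniculatus* and 6.75, 7.36 and 7.58 TPM in *P. polionotus* and did not pass (adjusted p = 0.393). Adora2a, the adenosine receptor that the same indirect-pathway cells express, was at 21.7, 15.1 and 20.6 TPM in *P. maniculatus* and 39.5, 41.2 and 35.3 TPM in *P. polionotus* (log2 fold change 0.99, SE 0.18, adjusted p = 0.00153). *P. maniculatus* replicate 2 was the lowest library for Drd1, Drd2, Adora2a, Pdyn and Penk. Over the whole striatal marker list, 11 were higher and 1 lower of 26 tested, a called share of 46.2% beside 34.1% of all tested genes (20% higher and 14.1% lower). The list's median was 0.20, and 9 members were higher with quantile normalization and 8 with median scaling. The summed level of the list was 2191 to 2638 TPM in *P. maniculatus* and 2927 to 2973 TPM in *P. polionotus*. Further members that passed were Gng7 (a G protein subunit) with 0.78, Rgs9 (a regulator of G protein signalling) with 0.55 and Ppp1r1b (DARPP-32, the phosphatase inhibitor downstream of dopamine) with 0.37 log2, the last losing its call without *P. maniculatus* replicate 2 (adjusted p = 0.0525). Gnal, the striatal and olfactory G protein alpha subunit, was the one lower member at 20.1, 19.7 and 21.1 TPM in *P. maniculatus* and 16.9, 16.9 and 18.3 TPM in *P. polionotus*. Its call was lost without *P. maniculatus* replicate 3 or *P. polionotus* replicate 1 or 2 (adjusted p up to 0.067). Members that did not pass include Pde10a with -0.16, Ptpn5 with 0.0056 and Bcl11b with -0.18 log2, of which Pde10a was called lower without the 3 libraries apart on the second component. The count of higher striatal members fell to 5 without *P. maniculatus* burrowing replicate 2, to 6 without *P. maniculatus* burrowing replicate 3 and to 7 without *P. polionotus* burrowing replicate 3. A larger share of striatum in the *P. polionotus* brains and more RNA of these genes per neuron cannot be told apart.

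Genes that make, move or break down monoamines had a called share of 20%, and monoamine receptors 30.4%, beside 34.1% of all tested genes. Of 10 tested genes of synthesis, transport and breakdown, 2 were higher and 0 lower. The higher ones numbered 1 without *P. maniculatus* replicate 2 or 3 or *P. polionotus* replicate 2 or 3. Slc6a3, the dopamine transporter, had 3.76, 3.28 and 3.35 TPM in *P. maniculatus* and 4.33, 4.75 and 6.18 TPM in *P. polionotus* (log2 fold change 0.44, SE 0.14, adjusted p = 0.0304). Its call was lost with the replicate block and without *P. maniculatus* replicate 2 or 3 or *P. polionotus* replicate 2 or 3 (adjusted p up to 0.11). Maob, monoamine oxidase B, was at 0.872, 0.841 and 0.879 TPM in *P. maniculatus* and 1.48, 1.55 and 1.74 TPM in *P. polionotus* (log2 fold change 0.47, SE 0.072, adjusted p = 0.000563). Slc6a4, the serotonin transporter, had 2.36, 2.23 and 2.06 TPM in *P. maniculatus* and 2.48, 1.98 and 3.82 TPM in *P. polionotus* and did not pass. Of 23 monoamine receptors, 4 were higher and 3 lower, which became 3 and 3 with median scaling. The higher receptors numbered 2 without *P. maniculatus* replicate 1 or *P. polionotus* replicate 1 or 2. The histamine H3 receptor Hrh3 was among the lower ones at 229, 233 and 223 TPM in *P. maniculatus* and 180.1, 167 and 137 TPM in *P. polionotus* (log2 fold change -0.50, SE 0.10, adjusted p = 0.00291). Htr5b, a serotonin receptor, was at 5.23, 5.52 and 5.28 TPM in *P. maniculatus* and 4.08, 3.7 and 3.97 TPM in *P. polionotus*.

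Other transmitter systems gave called shares under the 34.1% of all tested genes. Of 15 acetylcholine genes, 2 were higher and 1 lower (1 to 2 higher and 1 lower over the left-out libraries, 2 and 3 with quantile normalization), among them the nicotinic subunit Chrna4 at 32.4, 38.9 and 34.8 TPM in *P. maniculatus* and 44.1, 46.5 and 55.9 TPM in *P. polionotus* and the muscarinic receptor Chrm2 at 10.8, 10.6 and 9.8 TPM in *P. maniculatus* and 7.24, 7.48 and 8.3 TPM in *P. polionotus*. Of 22 glutamate receptor genes, 3 were higher and 2 lower. Grin3b, an NMDA receptor subunit of motor neurons, was at 8.02, 8.95 and 9.01 TPM in *P. maniculatus* and 2.15, 2.97 and 0.698 TPM in *P. polionotus* (log2 fold change -1.80, SE 0.27, adjusted p = 0.000564), and *P. polionotus* replicate 3 was lowest. The obligatory NMDA subunit Grin1 was at 213, 229 and 228 TPM in *P. maniculatus* and 262, 284 and 276 TPM in *P. polionotus* (log2 fold change 0.29, SE 0.071, adjusted p = 0.00857). Of 26 GABA and glycine genes, 4 were higher and 3 lower, which turned to 3 and 6 under median scaling. The lower members numbered 1 with the replicate block, without any one *P. maniculatus* library or without *P. polionotus* replicate 2, and 6 without the 3 libraries apart on the second component. Gad1, which makes GABA, had 110.3, 114 and 115 TPM in *P. maniculatus* and 88, 92.2 and 92.2 TPM in *P. polionotus* (log2 fold change -0.31, SE 0.084, adjusted p = 0.0145). Gabrg1, a GABA-A receptor subunit, was at 3.8, 3.31 and 4.05 TPM in *P. maniculatus* and 5.51, 5.25 and 5.62 TPM in *P. polionotus*.

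The series names locomotor genes in its title, and a list of genes annotated to locomotor behaviour, written from memory of the gene ontology term, was followed for that reason. Of 107 tested members, 24 were higher and 9 lower, which is 30.8% called beside 34.1% of all tested genes. The median was 0.059, and with quantile normalization 22 were higher and 14 lower. The lower members numbered 5 without *P. maniculatus* replicate 2 or 3 or *P. polionotus* replicate 1, and 18 without the 3 libraries apart on the second component of all 12 parental libraries (*P. polionotus* burrowing replicate 3 among them). The list therefore lay near the background share. Hexa, the alpha subunit of the lysosomal beta-hexosaminidase, led it at 9.69, 11.7 and 10.5 TPM in *P. maniculatus* and 26.9, 28 and 28.3 TPM in *P. polionotus* (log2 fold change 1.31, SE 0.074, adjusted p = 7.09e-07). Efnb3, an ephrin that guides spinal and corticospinal axons, was at 173, 155 and 171 TPM in *P. maniculatus* and 276, 282 and 266 TPM in *P. polionotus* (log2 fold change 0.72, SE 0.065, adjusted p = 1.85e-05). On the lower side stood Prex1, an exchange factor for Rac, with 42.6, 47.7 and 44.8 TPM in *P. maniculatus* and 33.6, 36.2 and 35.9 TPM in *P. polionotus*, and Abhd12, a lysophosphatidylserine lipase, with 31.8, 32.5 and 31.8 TPM in *P. maniculatus* and 25.7, 26.2 and 27.5 TPM in *P. polionotus*.

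Immediate early genes, which neurons switch on within minutes of activity, varied between animals of the same species. None of 35 tested immediate early genes was called by limma, and 2 had an unadjusted p under 0.05. Fos was at 169, 92.5 and 117 TPM in *P. maniculatus* and 213, 105 and 80.8 TPM in *P. polionotus* (adjusted p = 0.993). The mean log2 level of the list was 6.03, 5.69 and 5.77 in the *P. maniculatus* libraries and 6.35, 5.71 and 5.28 in the *P. polionotus* libraries, so the *P. polionotus* animals spanned the whole range. Replicate 1 of *P. polionotus* held the highest level and replicate 3 the lowest. Leaving out *P. polionotus* burrowing replicate 1 gave 6 lower genes, leaving out its replicate 3 gave 1 higher gene, and leaving out *P. maniculatus* replicate 2 gave 2 lower genes. Without the 3 libraries apart on the second component 4 genes were higher. How long before death each animal last dug was not given in the sources used here.

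Genes induced by glucocorticoids gave 5 higher and 1 lower of 19 tested, a called share of 31.6% beside 34.1% of all tested genes, with a median of 0.18. Leaving out 1 library gave 3 to 4 higher members, with 3 without *P. maniculatus* replicate 1 or *P. polionotus* replicate 2. Pdk4, which limits glucose oxidation in mitochondria, was at 33.8, 43.8 and 23.4 TPM in *P. maniculatus* and 66.1, 76.4 and 82.3 TPM in *P. polionotus* (log2 fold change 1.17, SE 0.25, adjusted p = 0.00418). Ddit4, an inhibitor of mTOR signalling, was at 147, 187 and 156 TPM in *P. maniculatus* and 285, 253 and 221 TPM in *P. polionotus* (log2 fold change 0.63, SE 0.12, adjusted p = 0.00288). The groups of both genes were separate. Lcn2, a secreted iron-binding lipocalin, was lower at 38.9, 37.6 and 36.1 TPM in *P. maniculatus* and 22.8, 16.7 and 14.5 TPM in *P. polionotus* (log2 fold change -1.04, SE 0.14, adjusted p = 0.000321). Of 23 heat shock and chaperone genes, 0 were higher and 2 lower, a called share of 8.7%. The clearer was the small heat shock protein Hspb8 at 55.8, 57.3 and 61.8 TPM in *P. maniculatus* and 39.9, 39.7 and 37.7 TPM in *P. polionotus*.

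Of 22 tested clock genes, 4 were higher and 5 lower, a called share of 40.9% beside 34.1% of all tested genes, with a median of -0.13. Both partners of the activating complex were lower: Clock was at 38.5, 39.8 and 39.5 TPM in *P. maniculatus* and 29.3, 28 and 32.4 TPM in *P. polionotus* and Arntl (BMAL1) at 7.7, 7.31 and 7.79 TPM in *P. maniculatus* and 5.29, 5.69 and 5.83 TPM in *P. polionotus*, with log2 fold changes of -0.38 and -0.38. The repressors Per3, with 12, 12.5 and 11.7 TPM in *P. maniculatus* and 18.8, 18.9 and 21.1 TPM in *P. polionotus*, and Cry2, with 49.8, 48.8 and 49.8 TPM in *P. maniculatus* and 62.6, 58.3 and 62.6 TPM in *P. polionotus*, were higher. The groups did not overlap in Clock, Arntl, Per3 or Cry2, and all 4 kept the same direction and a call after the control trial. Among the other called clock genes, Tef had a log2 fold change of 0.25 and Hlf of -0.20. The remaining called members are counted but not named here. Log2 fold changes were above 0 in 8 of the 22 tested clock genes. The hour of death was not given in the sources used here, and its part in these values was not tested.

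Genes of mitochondria and of vesicle acidification showed single large differences within mostly small ones. Called shares were 36.4% for iron-sulphur cluster assembly genes and 26.3% for vacuolar pump subunits, beside 34.1% of all tested genes. Of 22 iron-sulphur cluster assembly genes, 6 were higher and 2 lower, with 1 lower without *P. maniculatus* replicate 2 or 3 or *P. polionotus* replicate 2. Besides Iscu, Iba57 (a late assembly factor) was at 54.6, 57 and 49.7 TPM in *P. maniculatus* and 73.5, 79.4 and 80.3 TPM in *P. polionotus* and Fdx1 (a ferredoxin) at 8.76, 9.97 and 9.54 TPM in *P. maniculatus* and 13.1, 12.5 and 13.2 TPM in *P. polionotus*. Of 19 vacuolar pump subunits, 2 were higher and 3 lower. Atp6v1f stood alone in size, as the next lower subunit, Atp6v1g1, had 242, 236 and 242 TPM in *P. maniculatus* and 196, 187 and 184 TPM in *P. polionotus* (log2 fold change -0.34, SE 0.052, adjusted p = 0.000605). Of 54 nuclear-encoded respiratory chain and ATP synthase subunits, 7 were higher and 4 lower, a share of 20.4%. Ndufb10, a complex I subunit, was higher at 308, 299 and 307 TPM in *P. maniculatus* and 446, 446 and 435 TPM in *P. polionotus*, and Atp5f1, a subunit of ATP synthase, was lower at 111, 102 and 113 TPM in *P. maniculatus* and 78.6, 82.3 and 86 TPM in *P. polionotus*. Ndufs8, a core iron-sulphur subunit of complex I, had 37.6, 62.3 and 40.5 TPM in *P. maniculatus* and 15.6, 19.7 and 16.5 TPM in *P. polionotus* (log2 fold change -1.36, SE 0.28, adjusted p = 0.00334). Of 74 ribosomal protein genes, 10 were higher and 4 lower, a share of 18.9%, with 10 and 9 under quantile normalization. The lower members numbered 12 without the 3 libraries apart on the second component, and 2 without *P. maniculatus* replicate 3 or *P. polionotus* replicate 1 or 3. Rps29 was the clearest at 384, 388 and 385 TPM in *P. maniculatus* and 720.3, 815 and 787 TPM in *P. polionotus*. Ribosomal proteins have many near-identical processed copies, so single values are uncertain.

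**Figure D3:**
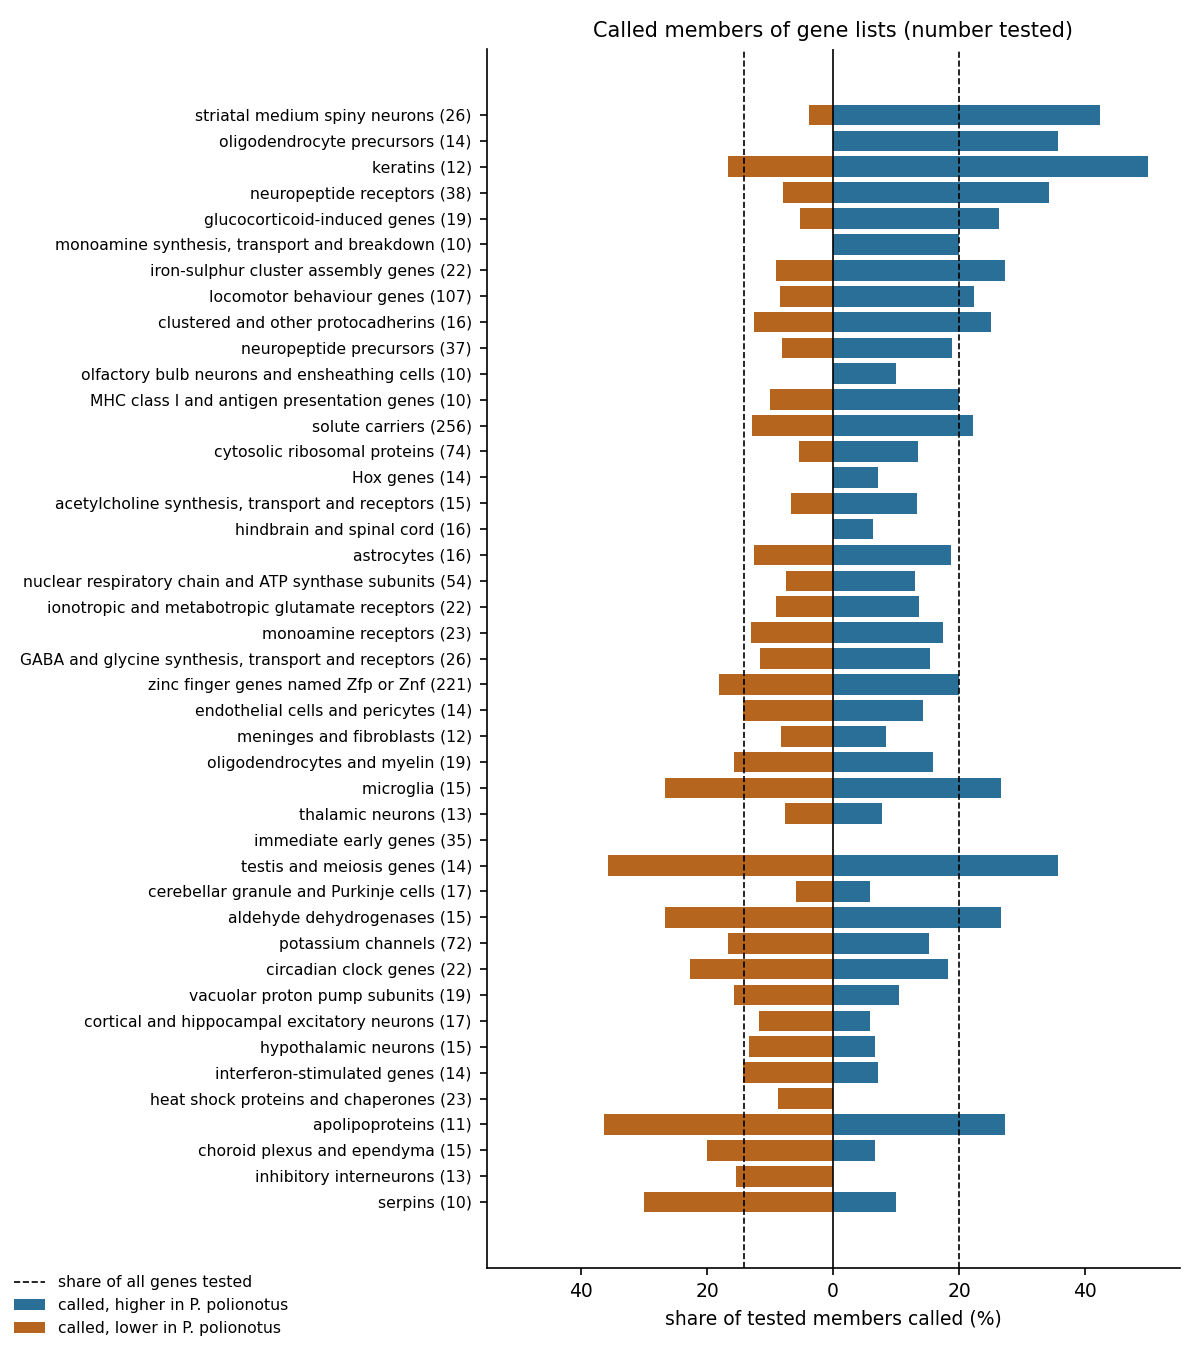
Bars give, for each gene list with at least 10 tested members, the share of tested members called higher (blue, to the right) and lower (brown, to the left) in *P. polionotus*, with the number tested in brackets. Dashed lines mark the shares over all 14366 tested genes, 20% higher and 14.1% lower. Lists at the top lean to higher levels and lists at the bottom to lower levels.

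Large gene families had shares of called genes near the background. Of 221 zinc finger genes named Zfp or Znf, 44 were higher and 40 lower, turning to 39 and 52 with quantile normalization and to 25 lower without *P. polionotus* replicate 2. Znf786 was at 4.8, 4.6 and 5.23 TPM in *P. maniculatus* and 13.2, 15.1 and 14.8 TPM in *P. polionotus* and Znf597 at 68, 70.9 and 68.1 TPM in *P. maniculatus* and 38.2, 36.7 and 39.5 TPM in *P. polionotus*, both without overlap. Of 256 solute carriers, 57 were higher and 33 lower, a lead that quantile normalization removed (46 and 48), with 37 higher without *P. polionotus* replicate 2. Slc5a2, a sodium and glucose cotransporter, was at 8.67, 8.82 and 6.35 TPM in *P. maniculatus* and 23.7, 24.2 and 26.6 TPM in *P. polionotus*, and Slc43a3, a purine transporter, at 4.45, 6.18 and 7.82 TPM in *P. maniculatus* and 0.374, 0.18 and 0.315 TPM in *P. polionotus*. Of 72 potassium channel genes, 11 were higher and 12 lower. Kcna6, a voltage-gated channel, was at 196, 201 and 191 TPM in *P. maniculatus* and 129.8, 129 and 129.5 TPM in *P. polionotus* (log2 fold change -0.59, SE 0.064, adjusted p = 5.97e-05). Kcnn3, a calcium-activated channel, was at 1.21, 1.32 and 1.23 TPM in *P. maniculatus* and 2.23, 2.53 and 2.86 TPM in *P. polionotus* (log2 fold change 0.65, SE 0.082, adjusted p = 0.000163). The count of higher potassium channels varied from 5 to 10 over the left-out libraries, with 5 without *P. polionotus* replicate 2, 6 without *P. maniculatus* replicate 1 and 7 without *P. maniculatus* replicate 3 or *P. polionotus* replicate 1. Of 16 protocadherins, 4 were higher and 2 lower (2 to 4 higher and 0 to 2 lower over the left-out libraries), and the clustered members share long stretches of sequence, so their values are uncertain.

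Enzymes of detoxification form small families, and some members reach the level for testing only through the species in which they are high, so their counts are given as values beside the 34.1% called over all tested genes. Of 7 tested glutathione transferases, 4 were higher and 2 lower. Gstz1, which also degrades tyrosine, was at 8.39, 9.2 and 8.08 TPM in *P. maniculatus* and 17.5, 17.8 and 21.8 TPM in *P. polionotus* (log2 fold change 1.06, SE 0.094, adjusted p = 1.5e-05), and Gstk1, the mitochondrial form, at 50, 59.1 and 51.5 TPM in *P. maniculatus* and 32.6, 32.1 and 36.9 TPM in *P. polionotus* (log2 fold change -0.64, SE 0.11, adjusted p = 0.00127). Gstt1 was higher by 0.70 log2 and lies beside a close copy, so it is uncertain. Of 15 aldehyde dehydrogenases, 4 were higher and 4 lower, which became 2 and 6 with quantile normalization, and 2 were higher without *P. polionotus* replicate 1 or 3. Aldh1l2, the mitochondrial folate enzyme, was at 1.91, 2.22 and 1.86 TPM in *P. maniculatus* and 5.17, 5.07 and 6.22 TPM in *P. polionotus*, while Aldh1b1 was at 25.5, 27.3 and 26.5 TPM in *P. maniculatus* and 12.1, 9.74 and 14.7 TPM in *P. polionotus*. The summed level of the family was 266 to 288 TPM in *P. maniculatus* and 185 to 205 TPM in *P. polionotus*. That sum includes Aldh1b1 and also Aldh3a1, with its log2 fold change of -3.53, so it does not describe the family as a whole. Of 3 tested cytochrome P450 genes (5 in the table), Cyp2a3 and Cyp2r1 were lower and the other did not pass (-1.33 and -0.56 log2 for the lower ones). Cyp2a3 belongs to a family of close copies.

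Apolipoproteins of the Apoe cluster moved apart from each other. Apoe, the main lipid carrier of the brain, was at 2168, 2411 and 2420.0 TPM in *P. maniculatus* and 5008, 4854 and 3099 TPM in *P. polionotus* (log2 fold change 0.86, SE 0.19, adjusted p = 0.00531). *P. polionotus* replicate 3 was the lowest of its group but still above every *P. maniculatus* library. Apoc1, known as a neighbour of Apoe in rodents, was at 269.6, 253 and 299 TPM in *P. maniculatus* and 82.7, 68.5 and 36 TPM in *P. polionotus* (log2 fold change -2.19, SE 0.24, adjusted p = 7.45e-05), and again *P. polionotus* replicate 3 was lowest. Apoc4 was higher at 1.61, 3.41 and 3.13 TPM in *P. maniculatus* and 11.6, 12.6 and 13.7 TPM in *P. polionotus*. Apoa4, an intestinal apolipoprotein, was at 6.55, 11.8 and 7.65 TPM in *P. maniculatus* and 0.112, 0.266 and 0.381 TPM in *P. polionotus*. Over the family, 3 were higher and 4 lower of 11 tested members (20 in the table), a called share of 63.6% beside 34.1% of all tested genes. Some members can reach the level for testing only through the species in which they are high.

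Some genes best known outside the brain reach the level for testing only through the species in which they are high. Their counts are given as values beside the 34.1% called over all tested genes. Of 12 keratins that reached the level for testing (32 in the table), 6 were higher and 2 lower. Krt20 was at 1.06, 1.89 and 0.0733 TPM in *P. maniculatus* and 19.4, 19.7 and 22.3 TPM in *P. polionotus* (log2 fold change 3.53, SE 0.38, adjusted p = 6.19e-05), and Krt5 at 1.91, 5.92 and 3.96 TPM in *P. maniculatus* and 0, 0.079 and 0 TPM in *P. polionotus* (log2 fold change -2.18, SE 0.25, adjusted p = 9.49e-05). Of 14 tested genes of testis and meiosis (45 in the table), 5 were higher and 5 lower. Ct55 was at 0.443, 0.412 and 0.674 TPM in *P. maniculatus* and 14.6, 13 and 16.2 TPM in *P. polionotus*, Acrbp (a protein of the sperm acrosome) at 6.2, 6.29 and 5.49 TPM in *P. maniculatus* and 12.8, 12.1 and 13 TPM in *P. polionotus* and Tex15 at 4.57, 4.3 and 3.98 TPM in *P. maniculatus* and 2.21, 1.96 and 2.25 TPM in *P. polionotus*. A gene that passes the level for testing only through the species in which it is high had to differ, so these counts describe the members that passed and not the families. Serpins gave 1 higher and 3 lower of 10 tested, with Serpinf1, a secreted neurotrophic factor, at 15.1, 16.9 and 18.2 TPM in *P. maniculatus* and 28.4, 22.9 and 22.2 TPM in *P. polionotus*.

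Microglial markers split in both directions. Of 15 tested, 4 were higher and 4 lower, a called share of 53.3% beside 34.1% of all tested genes. The median was 0.031. Trem2, a lipid-sensing receptor, was at 9.35, 7.74 and 12.6 TPM in *P. maniculatus* and 24.1, 28.7 and 29.2 TPM in *P. polionotus* (log2 fold change 1.40, SE 0.17, adjusted p = 0.00011). C1qa, a chain of complement C1q, was at 92.7, 80 and 93.1 TPM in *P. maniculatus* and 136, 145 and 175 TPM in *P. polionotus* (log2 fold change 0.77, SE 0.14, adjusted p = 0.00192). In contrast, Gpr34, a lysophosphatidylserine receptor, was at 7.39, 7.84 and 9.12 TPM in *P. maniculatus* and 2.41, 2.91 and 2.39 TPM in *P. polionotus* (log2 fold change -1.35, SE 0.14, adjusted p = 3.84e-05). The purine receptors P2ry12, with 34.2, 30.8 and 35 TPM in *P. maniculatus* and 24.2, 22 and 21.5 TPM in *P. polionotus*, and P2ry13, with 8.15, 8.53 and 8.76 TPM in *P. maniculatus* and 3.56, 4.58 and 4.28 TPM in *P. polionotus*, were also lower. Aif1, Itgam and Csf1r, general markers of these cells, had log2 fold changes of 0.025, 0.031 and -0.13 and did not pass. Microglial genes thus did not move as 1 block, and the counts were the same with quantile normalization and with median scaling. Interferon-stimulated genes gave 1 higher and 2 lower of 14 (21.4% called), among them Ifit2 at 15.2, 16.3 and 17.1 TPM in *P. maniculatus* and 9.49, 11.1 and 10.6 TPM in *P. polionotus*. Antigen presentation genes gave 2 higher and 1 lower of 10 (30% called), among them the immunoproteasome subunit Psmb10 at 74.3, 92.3 and 79.1 TPM in *P. maniculatus* and 121, 122 and 123 TPM in *P. polionotus*.

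**Figure D4:**
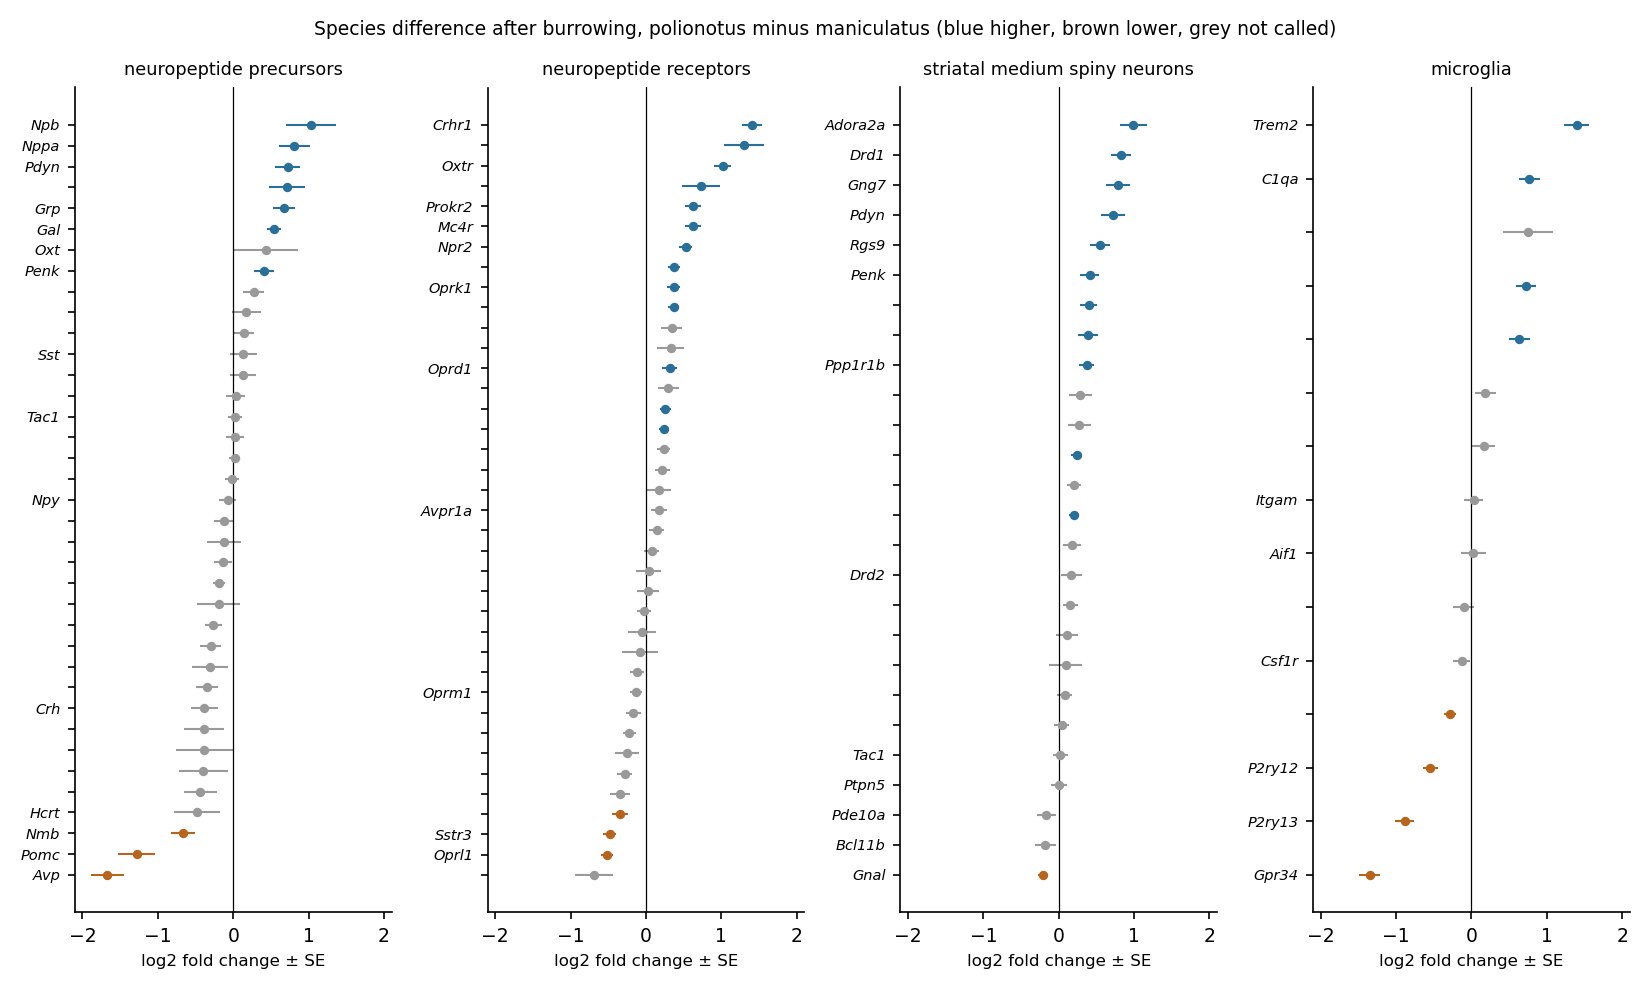
Each point is a tested member of 4 lists with its log2 fold change after burrowing (n = 3 libraries per species). The standard error drawn with it comes from a fit that also includes the parental control-trial libraries. Blue is called higher, brown called lower and grey not called. Gene names are given for members described in the text. Precursors are spread to both sides with Avp lowest, receptors and striatal markers lean to the right, and microglial markers split.

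Marker lists of other glia, of vessels and of choroid plexus had called shares of 26.7% to 35.7%, near or below the 34.1% of all tested genes. Of 14 markers of oligodendrocyte precursors, 5 were higher and 0 lower, with a median of 0.30 and 13 log2 fold changes above 0. After the control trial 8 were higher and 0 lower. Sums were 444 to 519 TPM in *P. maniculatus* and 471 to 603 TPM in *P. polionotus*, which overlap. The mean log2 level of the list did not overlap, at 3.90, 3.93 and 3.84 in *P. maniculatus* and 4.19, 4.18 and 4.10 in *P. polionotus*. Cacng4, a calcium channel and AMPA receptor subunit, was at 6.32, 5.7 and 6.18 TPM in *P. maniculatus* and 8.78, 8.62 and 8.63 TPM in *P. polionotus*, and Vcan (versican, a matrix proteoglycan) at 3.29, 3.52 and 3.18 TPM in *P. maniculatus* and 4.24, 4.34 and 4.81 TPM in *P. polionotus*. Of 19 markers of mature oligodendrocytes, 3 were higher and 3 lower, with 1 lower without *P. maniculatus* replicate 1 or 2 or *P. polionotus* replicate 1. Mag, a myelin adhesion protein, was higher at 98.3, 93.8 and 91.2 TPM in *P. maniculatus* and 126, 137 and 126 TPM in *P. polionotus* (log2 fold change 0.45, SE 0.091, adjusted p = 0.00308), and Ermn, a cytoskeletal protein of the myelin sheath, was lower at 153, 147 and 160.2 TPM in *P. maniculatus* and 101, 108 and 123 TPM in *P. polionotus* (log2 fold change -0.47, SE 0.086, adjusted p = 0.00174). Of 16 astrocyte markers, 3 were higher and 2 lower. Fgfr3 was at 65.9, 83.3 and 73.3 TPM in *P. maniculatus* and 103, 108 and 136 TPM in *P. polionotus* and Gja1 (connexin 43, the gap junction protein of astrocytes) at 286, 277 and 289.6 TPM in *P. maniculatus* and 195, 182 and 213 TPM in *P. polionotus*, without overlap in either gene. Endothelial and pericyte markers gave 2 higher and 2 lower of 14, with 5 log2 fold changes above 0 and a median of -0.17. The list summed to 450 to 506 TPM in *P. maniculatus* and 329 to 427 TPM in *P. polionotus*. At a mean of at least 5 TPM, which left out Kdr and Cdh5, 9 were tested, with 0 higher and 2 lower. The endothelial genes Kdr and Cdh5 were higher by 0.47 and 0.44 log2, and the pericyte genes Rgs5, at 35.6, 38.5 and 39.9 TPM in *P. maniculatus* and 23, 20 and 24.3 TPM in *P. polionotus*, and Vtn, at 112, 109 and 102 TPM in *P. maniculatus* and 84.7, 77 and 72.9 TPM in *P. polionotus*, were lower. Choroid plexus markers gave 1 higher and 3 lower of 15, with Mia at 10.2, 9.57 and 13.3 TPM in *P. maniculatus* and 5.19, 3.1 and 4.18 TPM in *P. polionotus*.

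Each regional marker list other than the striatal one stayed under the share of 34.1% called over all tested genes. Leaving out 1 library did not move the cortical counts and gave 0 to 1 higher and 1 lower for the cerebellar list, 1 to 2 higher and 0 to 1 lower for the thalamic, 1 higher and 2 to 3 lower for the hypothalamic and 0 higher and 1 to 2 lower for the interneuron list. Cortical and hippocampal excitatory markers gave 1 higher and 2 lower of 17, with Neurod6 at 361, 376 and 392 TPM in *P. maniculatus* and 270.4, 282 and 279 TPM in *P. polionotus* (log2 fold change -0.44, SE 0.093, adjusted p = 0.00411). Cerebellar markers gave 1 higher and 1 lower of 17. Of these, Rgs8, a Purkinje cell regulator of G protein signalling, was at 87.1, 82.9 and 91.2 TPM in *P. maniculatus* and 54.3, 54 and 67.2 TPM in *P. polionotus*. Thalamic markers gave 1 higher and 1 lower of 13, the higher one being the slow troponin Tnnt1 at 5.53, 6.5 and 6.14 TPM in *P. maniculatus* and 17.7, 11.2 and 18.8 TPM in *P. polionotus*. Hypothalamic markers gave 1 higher and 2 lower of 15. Interneuron markers gave 0 higher and 2 lower of 13. Among 14 Hox genes, which mark hindbrain and spinal cord, 1 was called, Hoxa2 at 3.59, 2.04 and 3.2 TPM in *P. maniculatus* and 5.91, 6.47 and 6.01 TPM in *P. polionotus* (log2 fold change 0.88, SE 0.25, adjusted p = 0.019), and this call was lost without *P. maniculatus* replicate 2 or *P. polionotus* replicate 2 (adjusted p up to 0.0725). After the control trial 10 of the 14 Hox genes were lower in *P. polionotus*, but none of the differences between trials was called. Markers of blood, muscle, bone and retina were low: of 7 tested muscle, bone and retina genes 0 were higher and 3 lower, with Gnat1, the G protein of rods, at 3.82, 2.91 and 2.39 TPM in *P. maniculatus* and 1.1, 0.946 and 1.02 TPM in *P. polionotus*. The blood list summed to 3.69 to 5.49 TPM in *P. maniculatus* and 9.2 to 13.5 TPM in *P. polionotus*, a sum that includes Ahsp itself. The list's other 2 tested members did not pass, and the part of blood in the Ahsp result was not tested.

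The same contrast in other animals, killed after the control trial, asks whether a difference was tied to burrowing. There 5696 of 14366 genes (39.6%) were called, 3843 (26.8%) higher and 1853 (12.9%) lower. Quantile normalization moved this split from 67.5% to 49.8% higher among the called genes, whereas after burrowing it moved from 58.7% to 50.6%. Of the 4901 genes called after burrowing, 4872 (99.4%) had the same sign after the control trial, where 84.1% of all tested genes did. Both trials called 4034 genes in the same direction, which is 82.3% of the burrowing calls and 70.8% of the control calls, and 1 gene in opposite directions. Of the 642 genes with more than 1 log2 after burrowing, 607 were also called after the control trial. Across all tested genes the log2 fold changes of both trials had a Pearson correlation of 0.924 and a Spearman correlation of 0.873, given as a description because genes are not independent. The trials share no libraries, but both sets of differences come from 1 fit.

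No gene passed the test of whether the species difference itself differed between trials: limma called 0 of 14366, and 415 (2.89%) had an unadjusted p under 0.05. None of the differences above is therefore shown to be particular to burrowing. The genes nearest to passing are given as values. Ptges, which makes prostaglandin E2, had 10.8, 10.3 and 10.2 TPM in *P. maniculatus* and 0.945, 0.592 and 0.752 TPM in *P. polionotus* after burrowing and 2.55, 2.61 and 1.23 TPM in *P. maniculatus* and 0.629, 0.331 and 0.648 TPM in *P. polionotus* after the control trial. Coq4, of ubiquinone synthesis, had a log2 fold change of 0.60 after burrowing and 0.16 (adjusted p = 0.0667) after the control trial. Fam166b had 0.99 and 0.21 (adjusted p = 0.262). Pcbp1, an RNA-binding protein, had 60.9, 52.6 and 62 TPM in *P. maniculatus* and 66, 61.9 and 62.2 TPM in *P. polionotus* after burrowing and 48.6, 32.2 and 24.3 TPM in *P. maniculatus* and 83.4, 155 and 93.7 TPM in *P. polionotus* after the control trial. Pcdhb2 was the gene called in opposite directions, with -0.45 (adjusted p = 0.0351) after burrowing and 0.41 (adjusted p = 0.045) after the control trial, and it has close copies in its cluster. Its call after burrowing was lost with the replicate block, with only the 2 groups fitted, without the 3 libraries apart on the second component, and without *P. maniculatus* replicate 2 or 3 or *P. polionotus* replicate 2 or 3 (adjusted p up to 0.115). Pdk4, Gal and Mgst3 were called after burrowing but not after the control trial, where they had 0.45 (adjusted p = 0.17), 0.15 (adjusted p = 0.233) and 0.16 (adjusted p = 0.532). Il33 was likewise not called after the control trial (log2 fold change 1.61, adjusted p = 0.0826). In contrast, Avp (-1.56, adjusted p = 0.000329), Crhr1 (1.42, adjusted p = 2.22e-05), Oxtr (1.15, adjusted p = 3.11e-05), Drd1 (0.87, adjusted p = 0.000535) and Drd5 (0.97, adjusted p = 3.86e-06) had control-trial values close to those after burrowing.

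**Figure D5:**
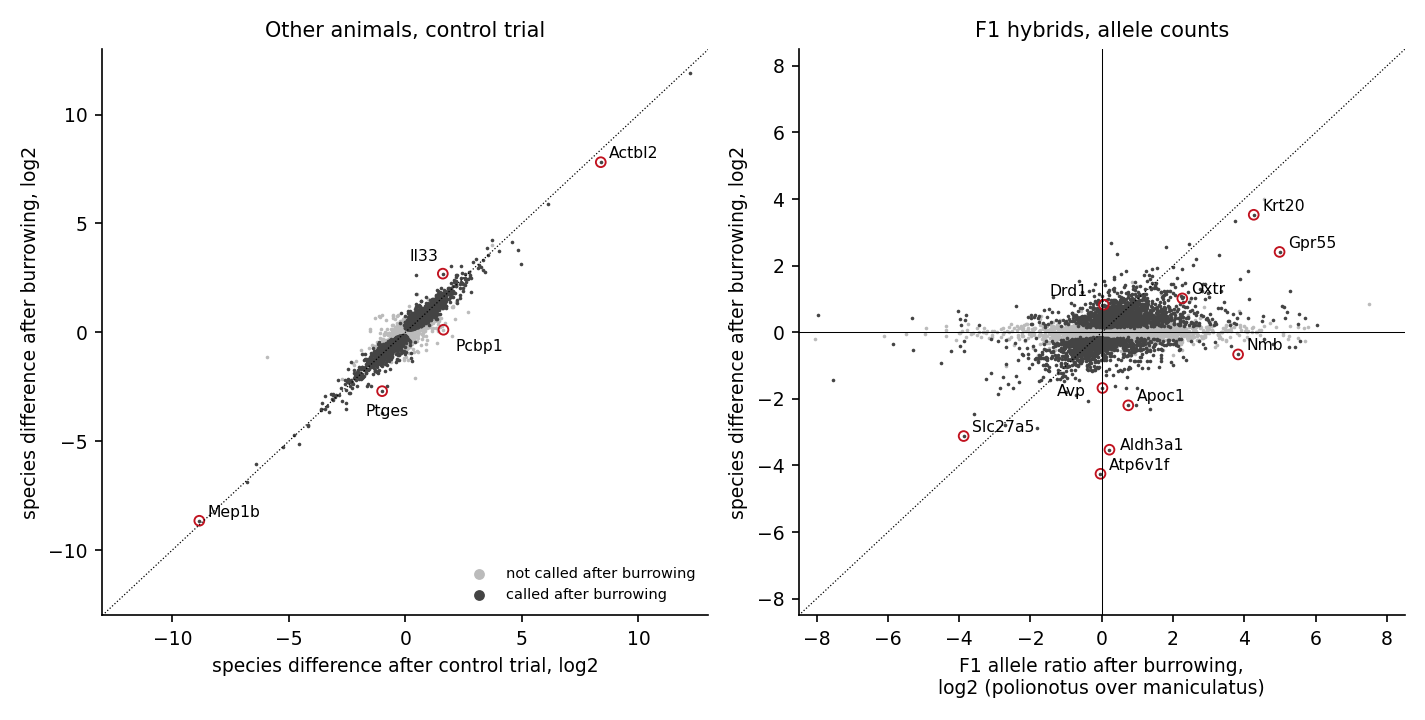
Both panels plot the species difference after burrowing (vertical axis, log2 fold change) for each gene, with dark points for genes called after burrowing. In the left panel the horizontal axis is the same contrast after the control trial (log2 fold change, 14366 genes) and the points follow the dotted line of equality; in the right panel it is the log2 ratio of the *P. polionotus* to the *P. maniculatus* allele in F1 hybrids after burrowing (9973 genes), where the points are spread more widely and genes such as Atp6v1f lie near an allele ratio of 0.

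In the F1 hybrids after burrowing, allele counts allow the same genes to be read with both alleles in the same cells. The 3 hybrids had 26264699, 28994982 and 22510205 allele counts, of which 52.8% to 53.1% were on the *P. polionotus* allele. With edgeR's quasi-likelihood test 4436 of 11928 genes (37.2%) had unequal alleles, 2799 (23.5%) with more *P. polionotus* and 1637 (13.7%) with less. With a scaling factor for each allele column the share with more *P. polionotus* was 42.8% of the calls in place of 63.1%, so this lean depends on the scaling. Alleles were measured for 9973 of the 14366 genes. How reads were assigned to an allele was not given in the sources used here, and a bias toward one allele was not tested.

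Of the 3303 genes called between species after burrowing that also had allele counts, 1417 (42.9%) had unequal alleles in the same direction, 217 (6.57%) in the opposite direction, and 1669 did not pass. With a scaling factor for each allele column these counts were 1269 same and 231 opposite, and with DESeq2 1605 and 259. Among genes not called between species, 30.3% had unequal alleles, against 49.5% among the called ones. Of these 6670 genes not called, 1317 had unequal alleles in the direction of their species fold change and 704 in the opposite direction. Of 214 genes with more than 1 log2 and allele counts, 135 (63.1%) had the same direction, 10 the opposite, and 69 did not pass. The remaining 428 genes with more than 1 log2, Mep1b, Actbl2, Iscu and Ankrd26 among them, have no allele value here. Across the 9973 genes the correlation of both log2 values was 0.297 (Pearson) and 0.358 (Spearman), as a description.

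The alleles followed the species difference in many of the named genes. In Krt20 the *P. polionotus* allele held 95% ± 1.28 (SD, n = 3, 220 to 259 allele counts per animal), and in Gpr55 96.9% ± 1.09 (SD, n = 3, 162 to 217 allele counts per animal), beside parental log2 fold changes of 3.53 and 2.41. Slc27a5 and Slc43a3, lower in *P. polionotus*, had shares of 6.56% ± 2.29 (SD, n = 3, 235 to 331 allele counts per animal) and 7.79% ± 1.15 (SD, n = 3, 167 to 286 allele counts per animal). Oxtr had 82.6% ± 3.53 (SD, n = 3, 26 to 59 allele counts per animal; log2 allele ratio 2.26, adjusted p = 0.00697), Hexa 69.9% ± 0.402 (SD, n = 3, 1345 to 1968 allele counts per animal; log2 allele ratio 1.22, adjusted p = 9.37e-05) and Snapin 33.8% ± 0.553 (SD, n = 3, 1052 to 1588 allele counts per animal; log2 allele ratio -0.97, adjusted p = 0.00069). Per3 and Gstz1 had shares of 67% ± 0.786 (SD, n = 3, 2306 to 3156 allele counts per animal) and 89% ± 0.541 (SD, n = 3, 474 to 539 allele counts per animal). In all of these the allele difference had the direction of the species difference, and each passed the allele test.

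For other genes the alleles were near equality although the species differed. Avp had a share of 50.3% ± 0.915 (SD, n = 3, 178 to 321 allele counts per animal; log2 allele ratio 0.019, adjusted p = 0.967), and Drd1 had 51% ± 1.01 (SD, n = 3, 780 to 1118 allele counts per animal; log2 allele ratio 0.056, adjusted p = 0.477). The 3 hybrids agreed closely in both genes. Clock and Arntl had 49.6% ± 0.903 (SD, n = 3, 4660 to 7276 allele counts per animal) and 48.4% ± 0.169 (SD, n = 3, 1389 to 1956 allele counts per animal), and P2ry12 had 50.4% ± 1.98 (SD, n = 3, 177 to 415 allele counts per animal). None of these passed. Adora2a had a share of 59.1% ± 2.12 (SD, n = 3, 435 to 973 allele counts per animal; log2 allele ratio 0.53, adjusted p = 0.00794) and did pass. Atp6v1f had 48.4% ± 14 (SD, n = 3, 45 to 90 allele counts per animal) and Aldh3a1 52.9% ± 13.7 (SD, n = 3, 132 to 1004 allele counts per animal), and Il33 had 53.4% ± 32.6 (SD, n = 3, 1572 to 3032 allele counts per animal). The hybrids differed widely among themselves in these 3 genes, so that near equality of their means carries a large error. In Il33 the shares of the 3 hybrids were 33.5%, 91.1% and 35.7%. Pdyn, with 58.3% ± 2.99 (SD, n = 3, 319 to 611 allele counts per animal), and Penk, with 54.1% ± 6.05 (SD, n = 3, 2278 to 3097 allele counts per animal), did not pass.

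A smaller group had alleles that leaned against the species difference. Nmb was lower in *P. polionotus* brains, yet its *P. polionotus* allele held 93.5% ± 1.51 (SD, n = 3, 61 to 123 allele counts per animal; log2 allele ratio 3.82, adjusted p = 0.00741). Chrm2, also lower, had 80.7% ± 7.35 (SD, n = 3, 134 to 198 allele counts per animal; log2 allele ratio 2.08, adjusted p = 0.0125). Krt5 had 66.3% ± 2.75 (SD, n = 3, 30 to 45 allele counts per animal; log2 allele ratio 0.97, adjusted p = 0.0301) and Tex15 60.2% ± 2.44 (SD, n = 3, 1076 to 2358 allele counts per animal; log2 allele ratio 0.60, adjusted p = 0.00309), both lower between the species. Slc5a2, higher in *P. polionotus*, had 39.4% ± 4.56 (SD, n = 3, 231 to 387 allele counts per animal; log2 allele ratio -0.63, adjusted p = 0.0244). Apoe was higher in *P. polionotus* with a share of 47.6% ± 1.03 (SD, n = 3, 5912 to 15554 allele counts per animal; log2 allele ratio -0.14, adjusted p = 0.0319).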

How the data were processed

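Members and gene lists were chosen with earlier results of these data known. STAR 2.4.2a is named as a tool in the submitters' processing notes. Genome build, annotation, the computation of TPM and the assignment of reads to alleles were not given in the sources used here. As deposited by the authors, the parental table holds TPM (20732 rows) and the F1 table whole-number counts per allele (11928 rows). Groups come from the sample titles, and each library was taken as 1 animal. One row without a gene name, 0.789% to 2.48% of a library's TPM, was left out. Rows whose names had become dates (27 and 19) were tested but not named.

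Log2(TPM + 1) was tested with limma 3.58.1 (trend, 1 mean for each of the 4 parental groups, 8 residual degrees of freedom) in R 4.3.3, and allele counts with edgeR 4.0.16 (quasi-likelihood, animal as a block, both alleles sharing a library size, a mean of at least 20 counts per animal). Tests were two-sided with Benjamini-Hochberg adjustment over all genes tested. The code was tested on simulated data. DESeq2 1.42.0, other pseudocounts, filters and scalings, a replicate block and left-out libraries were tried as alternatives, and leaving out the 3 libraries apart on the second component was chosen after seeing the data. Lists of pathway and cell type genes were described by counts and medians only. Named genes are, in each direction, the 15 largest changes with a symbol, at least 5 TPM and no overlap, the 6 most abundant changes over 1 log2 with no overlap, a set of key transmitter and peptide genes, up to 3 called members of each list in each direction, and the 4 genes in each direction with the smallest p of the trial difference. List members beyond these were named after their values were seen. Some list members are counted but not reported by name here.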

Additional observations from a re-analysis of the deposited data

How the results depend on the processing

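The count of genes called after burrowing stayed within 1.5 times of 4901 in every alternative run, from 3562 (mean of at least 5 TPM, 10881 genes tested) to 5792 (no filter, 19376 genes tested), and no gene was called in both the reported fit and an alternative with opposite signs. Leaving out 1 burrowing library gave 3763 to 4116. Quantile normalization gave 5296 (2682 higher, 2614 lower) and median scaling 5307 (2698 and 2609), with the median of all genes moved by -0.035 log2. Leaving out the 3 libraries apart on the second component gave 5516. Fitting only the 2 groups gave 4934. Whether replicate numbers pair the samples cannot be decided from 3 libraries per group. Correlations of same-numbered deviations were 0.099, 0.063 and -0.005 after burrowing, beside -0.102 to 0.039 for different numbers. After the control trial they were -0.103, -0.091 and -0.119, beside 0.014 to 0.083. The replicate block gave 4340 calls, 4161 of them shared. The species by trial difference went from 0 calls to 1 with a pseudocount of 5 and to 1 with no filter, and leaving out 1 library gave 0 to 2 (2 without *P. maniculatus* control replicate 1, 1 without *P. maniculatus* control replicate 3); the cause was not tested. For the hybrid alleles, leaving out 1 animal gave 2910 to 3792 calls in place of 4436, with 2910 without replicate 3 and fewer animals in each fit; DESeq2 gave 5300. Of the 221 named genes that were called, 180 kept the call in every alternative run for them: 136 of 169 over 16 alternatives, and 44 of 52 over 15, as the filter at 5 TPM left these out. TPM keep no depth, so genes near 1 TPM are limited by an unknown number of reads.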
